A study of Homo sapiens with 12 samples.

Results

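The extracellular matrix genes described here are the collagen chains, the laminin chains, fibronectin (FN1), the nidogens NID1 and NID2, perlecan (HSPG2) and agrin (AGRN). They were taken by symbol from a table of 35940 gene symbols, which gave 61 genes on 66 rows, and rows that shared a symbol were summed. COL11A2 alone stood on 6 identifiers. A filter on low counts kept 58 of the 61 for testing, and COL6A5, COL8A1 and LAMB4 did not pass it.

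RNA was sequenced from the human embryonic stem cell line ESI017 with an mCitrine reporter on SOX2, a line kept on Matrigel, itself a basement membrane extract, before it was seeded as colonies on micropatterned glass. The control colonies (2 libraries) spent 3 days in N2B27, a serum-free basal medium, with no added factor, and the labels give no reporter gate for them. The treated colonies had N2B27 for the same time with 200 ng/ml of FGF8 plus 100, 300 or 1000 ng/ml of WNT3A. A cell sorter then split them on reporter signal, giving a SOX2-positive and a SOX2-negative pool per treatment, with 2 libraries of each pool at the lowest and highest dose and 1 at 300 ng/ml. FGF8 was present at every WNT3A dose and absent from control, so the effects of the 2 factors cannot be told apart. Each treated library is also a sorted part of its colonies, while control has no gate in the labels. A difference from control can thus carry the sort as well as both factors, and these cannot be told apart. All libraries come from 1 line. The series title concerns the part of Nodal in how these cells interpret Wnt, and Nodal was not manipulated in any library by the labels.

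Basement membranes are sheets under epithelia, built on a laminin network and a collagen IV network that nidogen and perlecan link together. Laminins are trimers of an alpha, a beta and a gamma chain, and collagen IV trimers form from COL4A1 with COL4A2 and, in more restricted tissues, from COL4A3 to COL4A6. Fibronectin is a soluble dimer that integrins pull into fibrils, and it is laid down between epiblast and mesendoderm when cells leave the epiblast during gastrulation. Fibrillar collagens such as types I, II and V give tissues tensile strength, FACIT collagens decorate those fibrils, and membrane collagens span the cell surface. Matrix genes are read here as RNA. In bulk RNA, a change in the share of cells that express a gene and a change in RNA per cell cannot be told apart.

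DNA before 4 start sites is printed here: FN1, the member with the most RNA per length in SOX2-negative cells, COL9A2, the chain that parts from its trimer partners, COL6A2, a chain above control in both gates, and the start region that COL4A1 and COL4A2 share. RefSeq windows (GRCh38.p14) held 45 of the 61 genes, and the printed stretches are upstream of the RefSeq start and outside every exon of GENCODE 29, except the last one, which is a 30-base stretch. Capitals mark matches, on either strand, to any of 9 short motifs.
FN1: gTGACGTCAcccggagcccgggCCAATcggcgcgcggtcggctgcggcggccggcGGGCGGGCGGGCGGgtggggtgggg
COL9A2: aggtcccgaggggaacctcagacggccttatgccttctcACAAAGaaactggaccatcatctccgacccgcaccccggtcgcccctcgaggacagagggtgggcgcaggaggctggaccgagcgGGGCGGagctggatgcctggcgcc
COL6A2: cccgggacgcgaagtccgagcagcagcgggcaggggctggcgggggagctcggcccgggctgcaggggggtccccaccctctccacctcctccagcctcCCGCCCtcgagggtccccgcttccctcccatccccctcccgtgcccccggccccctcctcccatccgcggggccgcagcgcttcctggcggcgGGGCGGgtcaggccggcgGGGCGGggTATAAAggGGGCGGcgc
COL4A1-COL4A2: gggccgagctccCCAATttgttggcgctgc

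The FN1 stretch lies at chr2:215436173-215436252 on the minus strand, the COL9A2 stretch at chr1:40317389-40317536 on the minus strand and the COL6A2 stretch at chr21:46097862-46098096 on the plus strand. The last stretch, chr13:110307167-110307196 on the plus strand, lies in the 126 bases between the RefSeq starts of COL4A1 and COL4A2, which are read away from each other. The same head-to-head layout held for COL4A4 and COL4A3 on chromosome 2, 418 bases apart, and for COL4A6 and COL4A5 on chromosome X, 379 bases apart.

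The motifs searched in the 250 bases upstream, on both strands, were the cAMP response element (CRE) with the letters TGACGTCA, the CCAAT box, the GC box with GGGCGG and the TATA box with TATAAA. The others were the GATA motif with AGATAA, the TCF/LEF motif with CTTTGAT, the T-box motif with GGTGTGA, the forkhead motif with TGTTTAC and the SOX motif with ACAAAG. GC boxes overlap each other in the FN1 stretch. Shares are over gene symbols, a symbol counting where any of its windows holds the motif, and over the 35116 RefSeq windows. The CRE stood in 2.03% of all symbols (1.65% of windows) and, among the matrix genes, in FN1. CCAAT stood in 37.0% of symbols (32.0% of windows) and in 16 of the 45 matrix genes. The GC box stood in 46.2% of symbols (42.6% of windows) and in 31 of the 45. The TCF/LEF and forkhead letters, held by 2.75% and 3.66% of symbols (2.26% and 2.98% of windows), were found before 0 of the 45. The SOX letters, held by 16.3% of symbols (13.7% of windows), stood before 6. A match is a string of letters and no measured site.

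The libraries held 16474798 to 28078917 estimated counts. Sorting was visible in SOX2 itself, at 1.85 to 5.98 CPM in the SOX2-negative libraries, 418 to 467 CPM in the SOX2-positive libraries and 651 and 676 CPM in control. CPM here means the count scaled to the size of the library with TMM factors, and 3 counts equal 0.110 to 0.180 CPM. WNT3A 100 SOX2-negative replicate 2 had the highest values of AGRN, COL18A1, COL2A1 and COL23A1 among all libraries, and WNT3A 1000 SOX2-negative replicate 2 had the highest FN1. Nothing in the labels gives separate donors, so p-values measure the spread between repeats of 1 line.

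SOX2-negative cells carried far more matrix RNA than the other groups. The 61 genes together made 0.357% and 0.330% of all counts in control, 0.439% to 0.537% in the 5 SOX2-positive libraries and 1.66% to 2.45% in the 5 SOX2-negative libraries. The gates did not overlap on this measure. Fibronectin took much of the difference: FN1 was 1.95% and 2.20% of the matrix counts in control, 4.66% to 9.56% in SOX2-positive cells and 27.0% to 55.2% in SOX2-negative cells. Without FN1 the sums were 3512 and 3322 CPM in control, 4038 to 4760 CPM in SOX2-positive and 10268 to 13491 CPM in SOX2-negative libraries, so the gates still stood apart. Of the 61 genes, 40 had their highest library in the SOX2-negative gate, 14 in the SOX2-positive gate and 7 in control, and 5 stayed below 1 CPM in every library (COL10A1, COL15A1, COL6A5, COL8A1 and LAMB4). The gates have 5 libraries each and control has 2, so control could hold the highest value less often. The split over all genes was not counted, and the place of LAMB4 rests on 1 count.

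**Figure D1:**
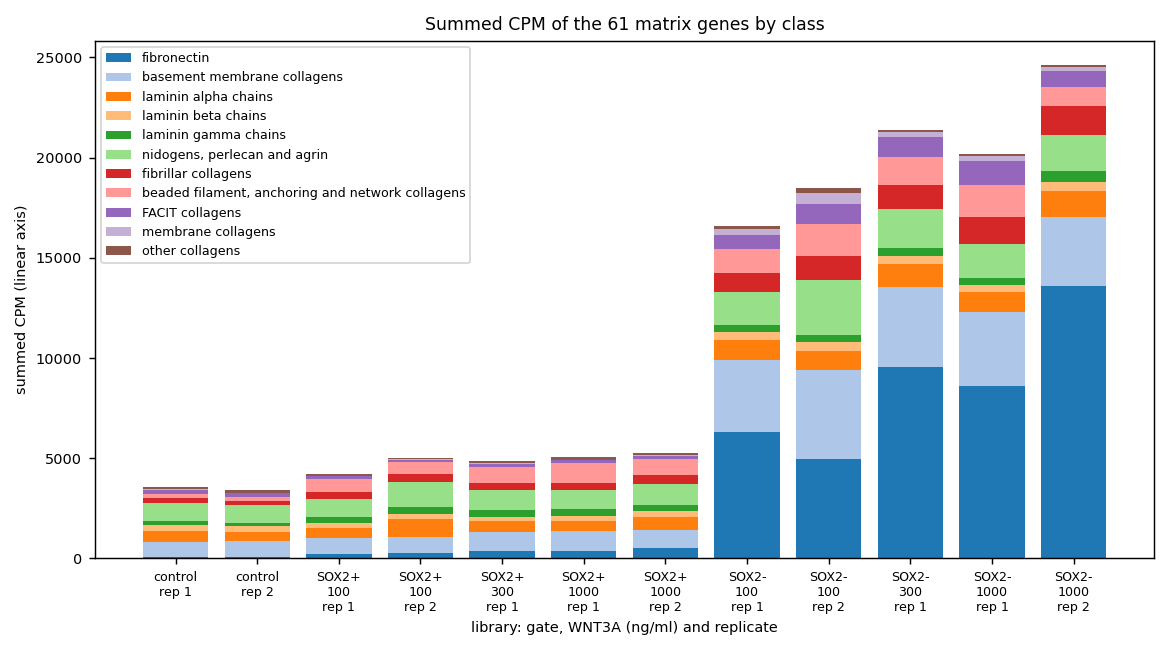
Summed CPM (linear axis) of the 61 matrix genes in each of the 12 libraries, stacked by class. Each bar is 1 library with no error; the SOX2-negative bars reach 16573 to 24605 CPM, and FN1 is their lowest and widest band.

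In SOX2-negative against SOX2-positive cells, averaged over 100 and 1000 ng/ml, 23 of 58 matrix genes were higher and 6 lower (edgeR quasi-likelihood test, adjusted p under 0.05 over 17047 genes). Over all genes tested 12.9% were higher and 11.1% lower, 24% together, against 50% of the members. The members' median log2 difference was 0.35, beside 0.01 over all genes. The classes split unevenly: 7 of 8 basement membrane collagens rose, 1 of 5 laminin alpha chains, 1 of 3 tested beta chains, 3 of 11 fibrillar collagens and 3 of 10 FACIT collagens, with 1 fibrillar and 3 FACIT collagens falling. When 100, 300 and 1000 ng/ml were averaged, 30 were called, and 26 of the 29 calls were kept under every alternative. The other 3 were COL4A3 (adjusted p = 0.0511 without WNT3A 1000 SOX2-negative replicate 1), COL5A2 (0.0639 without that library and 0.085 without WNT3A 100 SOX2-positive replicate 2) and NID1, described below. Further members passed without WNT3A 100 SOX2-negative replicate 1, in a fit that called a larger share of all genes. Of these, LAMC3, LAMB2 and COL26A1 were higher in SOX2-negative cells (log2 difference 0.54, 0.61 and 0.71). COL11A1, LAMA4 and COL25A1 were lower there (-0.86, -1.51 and -0.90). Without WNT3A 1000 SOX2-negative replicate 2 COL6A3 passed, also lower in SOX2-negative cells (-1.09).

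**Figure D2:**
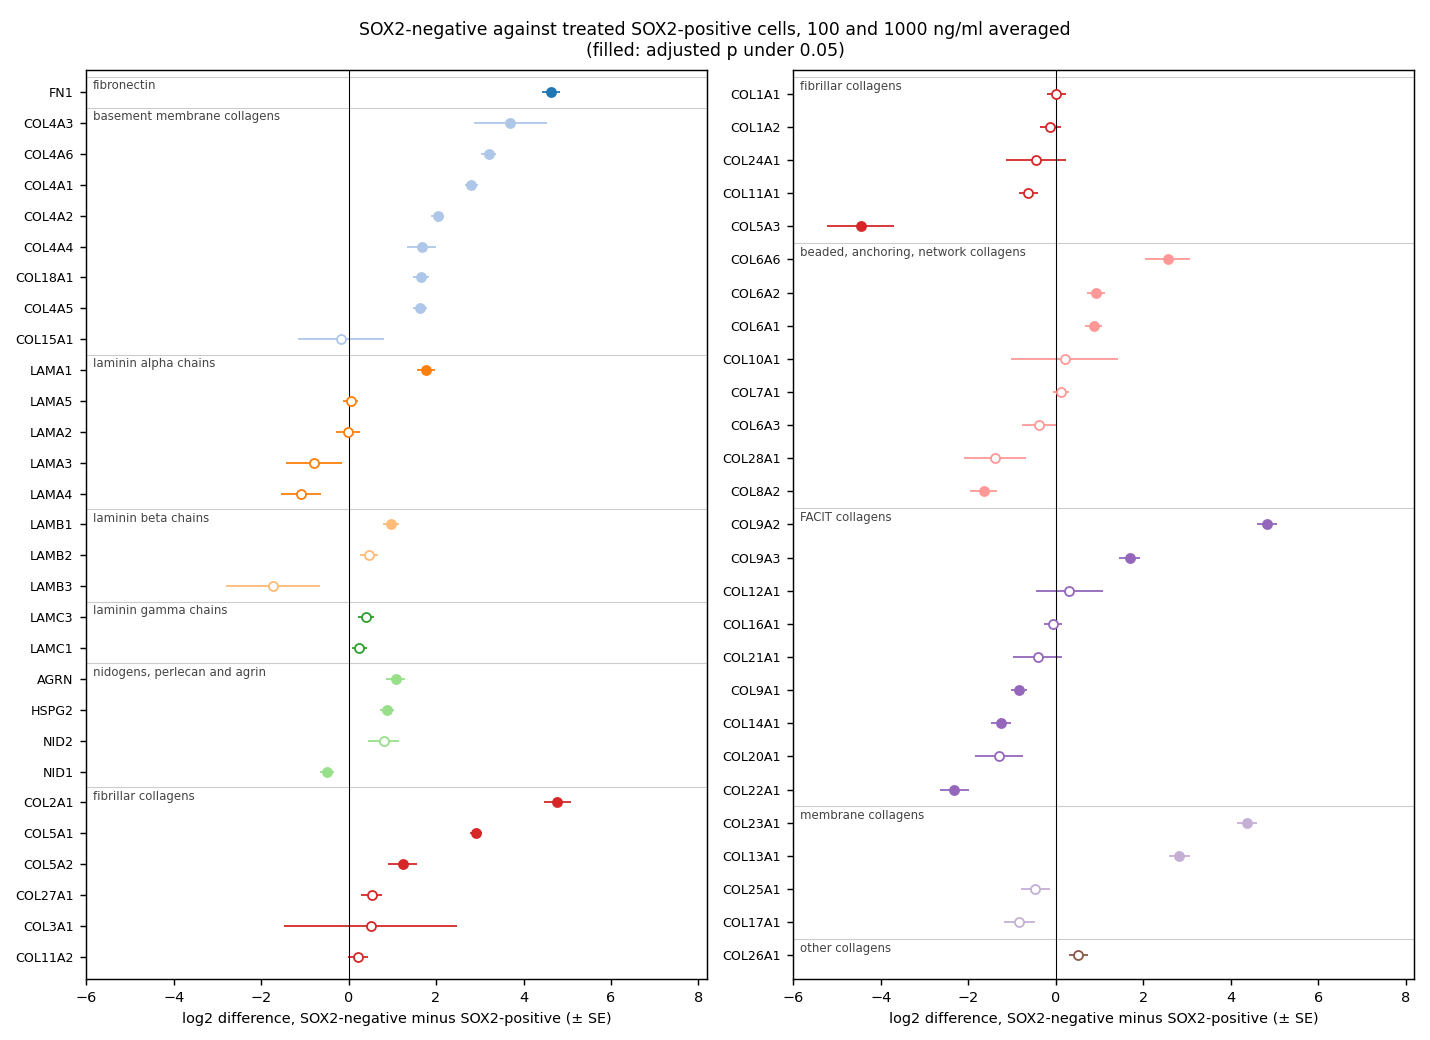
Log2 difference between SOX2-negative and treated SOX2-positive cells (horizontal axis, bars are SE from the edgeR fit) for tested matrix genes, grouped by class and without COL19A1, for which no fold is given; filled points have an adjusted p under 0.05. FN1, COL2A1, COL9A2 and COL23A1 lie beyond 4 on the right, and COL5A3 lies at -4.46 on the left.

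Fibronectin was, per length, the most abundant member in SOX2-negative cells. FN1 (chr2:215360440-215436172, minus strand) stood at 69.7 and 74.6 CPM in control, 198 and 265 CPM in SOX2-positive cells at 100 ng/ml, 351 at 300 and 390 and 501 at 1000. In SOX2-negative cells it stood at 6305 and 4978 CPM at 100 ng/ml, 9572 at 300 and 8613 and 13576 at 1000. The 3 sets were fully separate, control lowest and SOX2-negative highest. The gates differed by 4.62 ± 0.20 on the log2 scale (SE; edgeR adjusted p = 4.3e-07). Against control the difference was 6.29 ± 0.31 in SOX2-negative cells at 100 ng/ml and 7.26 ± 0.33 at 1000. In SOX2-positive cells it was 1.68 ± 0.26 at 100 ng/ml (edgeR adjusted p = 0.0059) and 2.62 ± 0.26 at 1000 (adjusted p = 0.00073). The call at 100 ng/ml in SOX2-positive cells rested on both controls: the adjusted p was 0.0646 without control replicate 1 and 0.0736 without replicate 2.

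**Figure D3:**
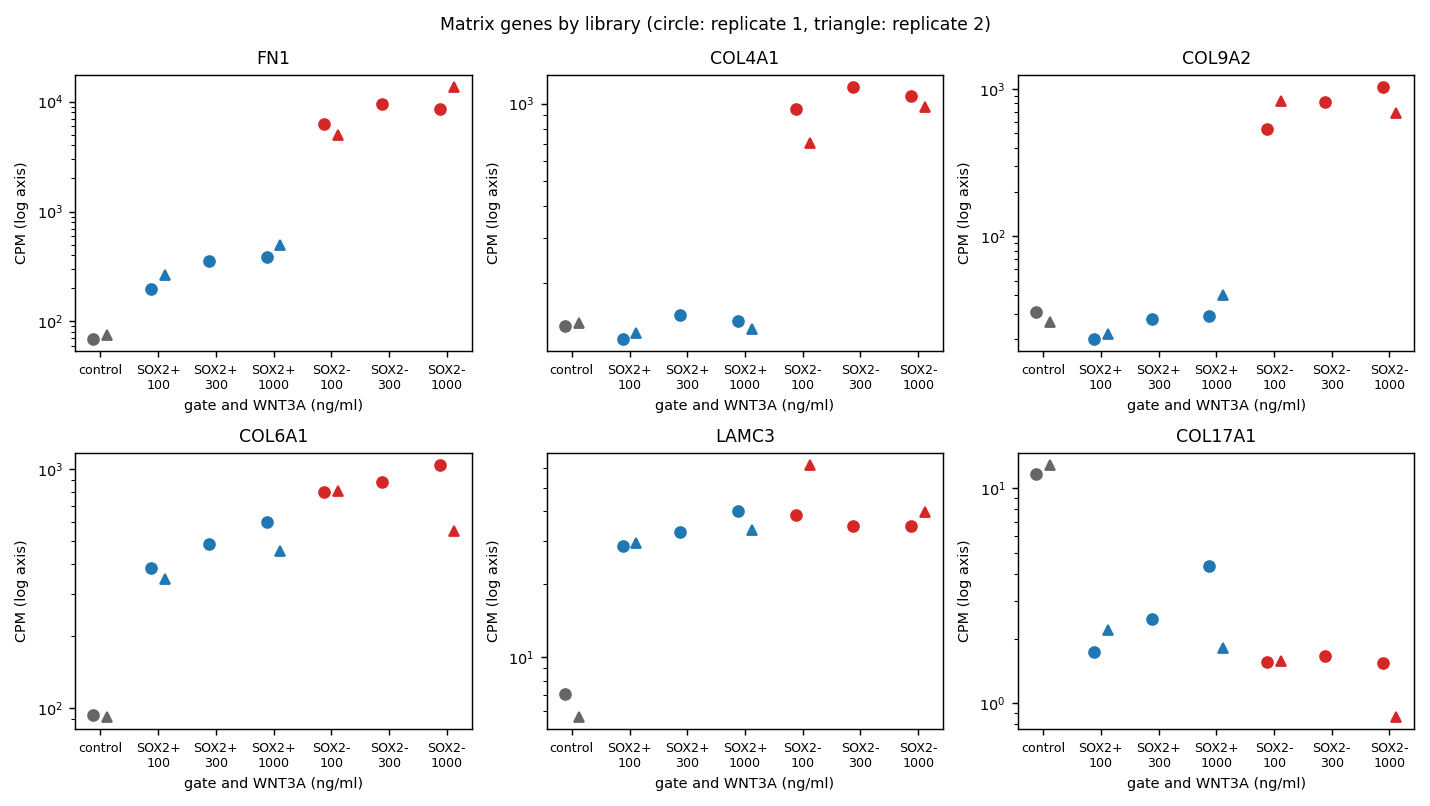
CPM (log axis) of 6 matrix genes by gate and WNT3A dose, 1 point a library (circle replicate 1, triangle replicate 2, grey control, blue SOX2-positive, red SOX2-negative). FN1 steps up in both gates, COL4A1 and COL9A2 stand high in the SOX2-negative gate, COL6A1 and LAMC3 are above control in both gates and COL17A1 is below it in both.

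The collagen IV chains that form most basement membranes rose in the SOX2-negative gate. COL4A1 stood at 136 and 140 CPM in control, 122, 129, 151, 143 and 133 in the SOX2-positive libraries from 100 to 1000 ng/ml, and 956, 703, 1160, 1072 and 972 in the SOX2-negative ones. Its partner COL4A2 was at 158 and 172 CPM in control, 172 to 214 in SOX2-positive and 661 to 870 in SOX2-negative libraries. For both genes the SOX2-negative libraries lay above all others and SOX2-positive libraries lay near control. The gate differences on the log2 scale were 2.81 ± 0.15 for COL4A1 and 2.04 ± 0.15 for COL4A2 (edgeR adjusted p = 8e-07 and 5.8e-06). In SOX2-positive cells against control the log2 differences were -0.14 and -0.00 for COL4A1 and 0.07 and 0.31 for COL4A2 at 100 and 1000 ng/ml, and none passed the test (adjusted p 0.48 to 1).

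COL4A5 and COL4A6 encode chains of smooth muscle and epithelial basement membranes. COL4A6 stood at 87.6 and 86.5 CPM in control, 46.6, 50.3, 50.5, 43.1 and 65.6 in SOX2-positive libraries and 511, 558, 508, 387 and 455 in SOX2-negative libraries. The gates thus lay on opposite sides of control, with a gate difference of 3.21 ± 0.17 on the log2 scale (edgeR adjusted p = 9.5e-07). The SOX2-positive values below control did not pass the test (adjusted p = 0.063 at 100 and 0.12 at 1000 ng/ml), although the first was 0.0462 with the replicate block, and DESeq2 called both (0.0068 and 0.0428). COL4A5 was at 88.5 and 73.4 CPM in control, 82.2 to 92.6 in SOX2-positive and 233 to 310 in SOX2-negative libraries, and rose between the gates by 1.64 ± 0.16.

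COL4A3 and COL4A4, the chains of kidney glomerular basement membrane, were scarce and were highest in SOX2-negative cells at the lowest dose. COL4A4 stood at 0.457 and 0.403 CPM in control, 1.69, 2.56, 1.43, 1.89 and 0.860 in SOX2-positive libraries, and 18.1, 11.6, 5.62, 2.02 and 1.94 in SOX2-negative libraries from 100 to 1000 ng/ml. COL4A3 stood at 0.203 and 0 CPM in control, 0.0589 to 0.271 in SOX2-positive libraries and 10.2, 3.38, 3.96, 1.54 and 0.288 in SOX2-negative libraries. Both thus ran from high at 100 ng/ml to low at 1000 ng/ml in SOX2-negative cells, but the dose difference of COL4A4 (-2.91 ± 0.47 on the log2 scale) missed the threshold in edgeR (adjusted p = 0.097), and so did that of COL4A3 (0.25); both passed with no filter on low counts (8.9e-06 and 0.0052). Both were called between the gates averaged over 100 and 1000 ng/ml, COL4A4 at 1.67 ± 0.33 and COL4A3 at 3.69 ± 0.83. At 1000 ng/ml alone COL4A4 lay close in the 2 gates, at 2.02 and 1.94 CPM in SOX2-negative against 1.89 and 0.860 in SOX2-positive libraries. COL4A3 stood at 1.54 and 0.288 against 0.0589 and 0.271 CPM. Its SOX2-positive values lie near the floor of 3 counts, so its fold rests on few counts.

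COL18A1, whose cleaved end is endostatin, was at 284 and 299 CPM in control, 373 to 493 in SOX2-positive libraries and 1086, 2059, 1110, 1092 and 1056 in SOX2-negative libraries. It rose between the gates by 1.66 ± 0.19 on the log2 scale (edgeR adjusted p = 0.00012), and WNT3A 100 SOX2-negative replicate 2 stood well above its neighbours. SLC19A1 shares 16.4% of the COL18A1 exon bases on the other strand, and the sources used here give no strand setting. COL15A1, a related chain, stayed below 1 CPM throughout.

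Among laminin chains the embryonic alpha chain LAMA1 rose and the broad epithelial chain LAMA5 did not pass the test. LAMA1 stood at 176 and 163 CPM in control, 126 to 218 in SOX2-positive and 507, 441, 599, 523 and 819 in SOX2-negative libraries, so the SOX2-negative set stood apart, with a gate difference of 1.76 ± 0.21 (edgeR adjusted p = 0.00016). The LAMA1 exons share 11.1% of their bases with genes on the other strand. LAMA5 stood at 379 and 293 CPM in control, 384 to 619 in SOX2-positive and 470 to 552 in SOX2-negative libraries, which overlap, and the gate difference was 0.05 ± 0.17 (adjusted p = 0.88). LAMA2, LAMA3 and LAMA4 lay between 0.317 and 9.60 CPM, and none passed between the gates.

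LAMB1, the beta chain of the early embryonic laminins, stood at 182 CPM in each control library, 113 to 152 in SOX2-positive and 195 to 328 in SOX2-negative libraries. The gates lay on either side of control and differed by 0.98 ± 0.18 on the log2 scale (edgeR adjusted p = 0.0027), while neither gate passed against control (adjusted p 0.19 to 0.48). LAMB2, the chain of neuromuscular and vascular basement membranes, overlapped between the gates at 94.3 to 143 and 134 to 225 CPM (adjusted p = 0.13). LAMB3, a chain of skin laminin, was below 1.5 CPM in every library.

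The gamma chains LAMC1 and LAMC3 were not called between the gates and stood above control in every treated library. LAMC3 stood at 7.06 and 5.67 CPM in control, 28.7, 29.6, 32.9, 40.0 and 33.4 in SOX2-positive and 38.4, 61.7, 34.8, 34.7 and 39.5 in SOX2-negative libraries, with every treated library above control. Against control the log2 differences were 2.98 ± 0.28 and 2.55 ± 0.28 in SOX2-negative cells and 2.20 ± 0.27 and 2.53 ± 0.28 in the other gate (100, then 1000 ng/ml), and each passed (edgeR adjusted p 6.3e-05 to 0.0022). The SOX2-positive call at 100 ng/ml was lost without control replicate 2 (0.0544). LAMC1, the common gamma chain, stood at 165 and 172 CPM in control, 253 to 306 in SOX2-positive and 237 to 485 in SOX2-negative libraries, and passed against control in SOX2-negative cells at 1000 ng/ml (1.25 ± 0.24, adjusted p = 0.0045; 0.0522 without control replicate 1).

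Of the proteins that join the networks, perlecan and agrin were higher in SOX2-negative than in SOX2-positive cells. HSPG2 stood at 298 and 265 CPM in control, 312 to 472 in SOX2-positive and 572, 656, 775, 718 and 850 in SOX2-negative libraries, with no overlap and a gate difference of 0.87 ± 0.16 (edgeR adjusted p = 0.0025). AGRN, a heparan sulfate proteoglycan best known from the neuromuscular junction, was the most abundant member per length in control and stood at 561 and 549 CPM there, 493 to 626 in SOX2-positive and 973, 2070, 1069, 902 and 848 in SOX2-negative libraries. It differed between the gates by 1.07 ± 0.21 (adjusted p = 0.0041). The call of AGRN against control at 100 ng/ml was lost without either control library and with only the groups compared (edgeR adjusted p = 0.0642). At 1000 ng/ml AGRN was not called against control (adjusted p = 0.165), although it passed with no filter on low counts (0.0434) and with only the groups compared (0.0143). HSPG2 shares 11.7% of its exon bases with LDLRAD2.

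The nidogens did not follow. NID1 stood at 51.5 and 61.6 CPM in control, 79.5 to 98.7 in SOX2-positive and 49.4 to 72.3 in SOX2-negative libraries, so it was lower in the SOX2-negative gate, by 0.50 ± 0.16 on the log2 scale. This call sat at the threshold (edgeR adjusted p = 0.041): it was 0.0513 with the replicate block and was lost under 10 of the alternatives, among them the omission of either library of control, WNT3A 100 SOX2-positive, WNT3A 1000 SOX2-positive or WNT3A 1000 SOX2-negative (0.0653 to 0.133). NID2, its paralog, stood at 5.42 to 15.5 CPM in 11 libraries and at 33.5 CPM in WNT3A 1000 SOX2-negative replicate 2, and was not called between the gates (0.80 ± 0.36, edgeR adjusted p = 0.14), although it passed with no filter on low counts (0.0074) and without WNT3A 1000 SOX2-negative replicate 1 (0.0225). RTRAF shares 30.0% of the NID2 exon bases.

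The fibrillar collagens fell into 3 patterns. COL2A1, the cartilage and notochord collagen, stood at 9.50 and 13.7 CPM in control, 7.68, 12.3, 8.08, 9.37 and 17.6 in SOX2-positive and 298, 526, 298, 218 and 276 in SOX2-negative libraries. It was high in the SOX2-negative gate alone among these groups, with a difference of 4.78 ± 0.30 (edgeR adjusted p = 2.7e-06). COL5A1, which nucleates collagen I fibrils, stood at 61.8 and 51.9 CPM in control, 58.6 to 72.0 in SOX2-positive and 359, 340, 587, 728 and 652 in SOX2-negative libraries. The gate difference was 2.92 ± 0.14 (adjusted p = 5.7e-07). COL5A2, its partner chain, rose from 6.15 and 7.06 CPM in control to 20.3, 17.7, 51.2, 93.3 and 78.3 in SOX2-negative libraries, while SOX2-positive libraries spread from 8.90 to 36.5 CPM and overlapped them.

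The collagen I chains stood above control in both gates and did not separate them. COL1A1 was at 44.6 and 33.2 CPM in control, 97.6, 140, 97.8, 84.4 and 114 in SOX2-positive and 94.7, 146, 90.7, 78.8 and 118 in SOX2-negative libraries. The gate difference was 0.01 ± 0.22 on the log2 scale (edgeR adjusted p = 0.99). COL1A2 was at 23.8 and 32.1 CPM in control, 85.2 to 126 in SOX2-positive and 51.8 to 172 in SOX2-negative libraries, with a gate difference of -0.13 ± 0.23. Against control COL1A1 was higher by 1.34 to 1.63 and COL1A2 by 1.33 to 2.28 over the 4 comparisons, each of which passed, but 7 of these 8 calls were lost without control replicate 2, the exception being COL1A2 in SOX2-negative cells at 1000 ng/ml. Without control replicate 1 COL1A2 was lost in SOX2-negative cells at 100 ng/ml (0.155), and both genes were lost at both doses in SOX2-positive cells (0.0802 to 0.127). Without replicate 2 of the gate tested COL1A2 was lost in SOX2-negative cells at 100 ng/ml (0.102; 0.0622 with only the groups compared) and COL1A1 at 1000 ng/ml (0.115). In SOX2-positive cells, leaving out either library of the gate tested lost both genes at 100 ng/ml and COL1A1 at 1000 ng/ml (0.055 to 0.18).

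COL5A3 went the other way. It stood at 3.25 and 2.60 CPM in control, 3.65 to 7.06 in SOX2-positive and 0.239, 0, 1.23, 1.22 and 0.0824 in SOX2-negative libraries, a gate difference of -4.46 ± 0.76 (edgeR adjusted p = 0.0017) that rests on few counts, 4 in all at 100 ng/ml. COL3A1, the usual companion of collagen I in loose connective tissue, was at 0 to 1.15 CPM. COL11A1, COL11A2 and COL27A1, at 5.78 to 97.1 CPM, and COL24A1, at 0.102 to 1.53 CPM, were not called between the gates. COL11A1 reached 0.0495 with the replicate block, lower in SOX2-negative cells.

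Collagen VI, which forms beaded filaments beside basement membranes, was up in both gates. COL6A1 stood at 93.5 and 92.2 CPM in control, 384, 346, 486, 600 and 453 in SOX2-positive and 801, 808, 886, 1036 and 551 in SOX2-negative libraries. Every treated library was above control, and the gates overlapped at 1 SOX2-negative library. The log2 differences from control were 3.12 ± 0.29 and 3.10 ± 0.29 in SOX2-negative cells and 1.98 ± 0.28 and 2.50 ± 0.29 in SOX2-positive cells, and the gates differed by 0.87 ± 0.19 (edgeR adjusted p = 0.0081). COL6A2 followed, from 70.9 and 69.6 CPM in control to 193 to 332 in SOX2-positive and 347 to 728 in SOX2-negative libraries, with a gate difference of 0.92 ± 0.20. Without control replicate 2 the SOX2-positive calls were lost for COL6A1 at 100 ng/ml (0.069) and for COL6A2 at 100 and 1000 ng/ml (0.15 and 0.0551). The call of COL6A2 at 100 ng/ml was also lost without control replicate 1 (0.105) and without either library of the gate (0.106 and 0.0517).

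COL6A3, the last chain of the common collagen VI trimer, stood at 1.22 and 1.46 CPM in control, 3.50 to 7.22 in SOX2-positive and 2.18 to 9.27 in SOX2-negative libraries. It did not differ between the gates beyond its error (-0.37 ± 0.40) and per length it was the lowest of the 3 chains in every library. COL6A6, an alternative to it, was at 0.183 to 0.701 CPM in control and SOX2-positive libraries and 1.24 to 4.86 in SOX2-negative ones, and was called (2.56 ± 0.51). COL8A2, a network chain of corneal endothelium, was lower in the SOX2-negative gate, at 1.44 to 2.52 against 5.40 to 6.19 CPM (-1.65 ± 0.31, edgeR adjusted p = 0.0031), with control at 2.24 and 1.02. COL7A1, which anchors skin basement membranes, lay at 27.5 to 42.1 CPM and was not called.

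Within the FACIT collagens the chains of 1 trimer parted. Collagen IX is built from COL9A1, COL9A2 and COL9A3 and coats collagen II fibrils in cartilage. COL9A2 (chr1:40300487-40317813, minus strand) stood at 30.9 and 26.1 CPM in control, 20.3, 21.7, 27.7, 28.8 and 40.3 in SOX2-positive and 537, 835, 813, 1030 and 686 in SOX2-negative libraries, a gate difference of 4.83 ± 0.23 (edgeR adjusted p = 5.7e-07). COL9A3 stood at 59.1 and 38.8 CPM in control, 26.7 to 50.8 in SOX2-positive and 77.0 to 151 in SOX2-negative libraries (1.69 ± 0.24). COL9A1 moved down: it stood at 46.1 and 45.1 CPM in control, 27.2 to 38.7 in SOX2-positive and 25.0, 28.4, 22.1, 17.1 and 11.4 in SOX2-negative libraries (-0.84 ± 0.18, adjusted p = 0.0070), with gates that overlap.

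COL19A1, a scarce chain tied to basement membrane zones, was at 0.152 and 0.146 CPM in control (7 counts in all), 0 to 0.588 in SOX2-positive and 3.53, 1.32, 5.78, 6.28 and 17.3 in SOX2-negative libraries. It was called between the gates (edgeR adjusted p = 0.00039), and no fold is given since both SOX2-positive libraries at 100 ng/ml had no count. COL14A1 fell between the gates by 1.25 ± 0.22 on the log2 scale, from 14.3 to 22.4 CPM in SOX2-positive to 4.31 to 8.14 in SOX2-negative libraries, with control at 21.5 and 26.6. COL22A1, a chain of tissue junctions, stood at 5.64 and 5.02 CPM in control, 6.10 to 9.78 in SOX2-positive and 0.783 to 2.36 in SOX2-negative libraries (-2.33 ± 0.33). COL16A1 stood at 26.1 and 20.6 CPM in control and 8.41 to 15.3 in treated libraries, and passed against control in the SOX2-negative gate at the edge of the threshold (0.049 and 0.045); each call was lost without either control library (0.102 to 0.264) and under several other omissions.

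Of the membrane collagens, COL23A1 was at 8.03 and 8.09 CPM in control, 9.67 to 11.4 in SOX2-positive and 234, 447, 182, 154 and 131 in SOX2-negative libraries, a gate difference of 4.38 ± 0.23 (edgeR adjusted p = 7.3e-07). COL25A1 was at 3.00 and 2.34 CPM in control, 8.37 to 13.2 in SOX2-positive and 3.03 to 12.6 in SOX2-negative libraries, and was not called between the gates (adjusted p = 0.347). Against control it passed in SOX2-negative cells at 1000 ng/ml (log2 1.78, adjusted p = 0.0307), a call lost without either control library. In SOX2-positive cells it missed the threshold (0.065 and 0.0532), and DESeq2 called it at both doses (0.0088 and 0.0064). COL13A1, found at cell junctions, stood at 25.1 and 19.1 CPM in control, 8.68, 8.12, 4.99, 7.90 and 14.7 in SOX2-positive and 66.2, 66.4, 82.2, 92.4 and 52.4 in SOX2-negative libraries. It was above control in each SOX2-negative and below it in each SOX2-positive library, with a gate difference of 2.83 ± 0.25 (adjusted p = 2.1e-05). Against control it was called lower in SOX2-positive cells at 100 ng/ml (-1.40 ± 0.34, adjusted p = 0.047), which became 0.0571 with the replicate block and was lost without either library of control or of that group (0.152 to 0.26).

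COL17A1, the collagen of hemidesmosomes in surface epithelia, fell in both gates. It stood at 11.6 and 12.8 CPM in control and 0.865 to 4.36 CPM in treated libraries, lower by 2.96 ± 0.51 and 3.35 ± 0.52 in SOX2-negative cells and by 2.63 ± 0.50 and 1.99 ± 0.49 in SOX2-positive cells on the log2 scale. The SOX2-positive calls (edgeR adjusted p = 0.015 and 0.040) were lost without either library of control or of the gate tested (0.0515 to 0.255), and the latter also without either WNT3A 100 SOX2-positive library. Of 9 markers of amnion and surface ectoderm 5 were tested. In SOX2-positive cells against control 4 were lower at 100 ng/ml and 2 at 1000 ng/ml, and none was higher. Over all genes 1.53% and 1.97% were lower there. In SOX2-negative cells 2 were lower, TFAP2A and TFAP2C, and 2 higher, GATA3 and ISL1, at each dose. Over all genes 8.67% and 7.1% were lower and 11.9% and 10.7% higher there, at 100 and 1000 ng/ml. TFAP2A was at 211 and 155 CPM in control and 1.88 to 42.1 CPM in treated libraries. The 9 markers summed to 262 to 337 CPM in control, 17.5 to 81.1 in SOX2-positive and 166 to 226 in SOX2-negative libraries, where GATA3 made up most of the sum. KRT5 and KRT14 were at or near 0 throughout. The part of these cells in the COL17A1 result was not tested. COL26A1 stood at 78.5 to 247 CPM with the highest value in WNT3A 100 SOX2-negative replicate 2 and was not called.

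Set against control, 26 of 58 members were higher and 5 lower in SOX2-negative cells at 100 ng/ml, where 11.9% and 8.67% of all genes were called (20.6% together), and 28 were higher and 5 lower at 1000 ng/ml, where 10.7% and 7.1% were (17.8% together). In SOX2-positive cells 9 were higher and 2 lower at 100 ng/ml, beside 2.69% and 1.53% of all genes (4.22% together), and 8 were higher and 1 lower at 1000 ng/ml, beside 3.63% and 1.97% (5.6% together). Those higher at both doses included FN1, COL1A1, COL1A2, COL6A1, COL6A2, COL8A2 and LAMC3, and COL4A4 was called higher at 100 ng/ml. The median log2 differences of the members were 1.11 and 1.20 in SOX2-negative cells and 0.18 and 0.41 in SOX2-positive cells, beside 0.01 to 0.05 over all genes. These 4 comparisons share the same control libraries. They leaned on both of them: without control replicate 2 the count fell to 16 in SOX2-negative cells at 100 ng/ml (8.29% of all genes), to 0 in SOX2-positive cells at 100 ng/ml (0.5%) and to 3 at 1000 ng/ml (0.753%). Leaving out control replicate 1 left 2 and 4 in SOX2-positive cells (1.17% and 1.6%). Leaving out a library of the gate tested left 3 at 100 ng/ml for either (0.863% and 1.49%) and, for replicate 1, 5 at 1000 ng/ml (1.7%). The SOX2-positive calls of COL8A2 (edgeR adjusted p = 0.049 and 0.031) were lost under 9 and 6 of 16 alternatives, and that of COL4A4 without either library of control or of the gate (0.088 to 0.28).

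Between 100 and 1000 ng/ml of WNT3A no member was called within either gate, nor in the difference of the dose effect between the gates (edgeR; 0 of 58 each, and 0% of all genes). At an unadjusted p under 0.05 there were 15, 4 and 8 members, beside 18.2%, 1.72% and 7.91% of all genes. DESeq2 called 6 in SOX2-negative cells, with 2.42% of all genes, among them FN1 (adjusted p = 0.024), COL5A1 (2.6e-05), COL5A2 (0.00076), COL4A4 (3.3e-05) and COL23A1 (0.0033), and 0 in the other 2 comparisons. With no filter on low counts edgeR called 12 in SOX2-negative cells, with 6.79% of all genes, among them FN1 (0.00091), COL5A1 (0.0049), COL5A2 (2.9e-10), COL4A3 (0.0052), COL4A4 (8.9e-06) and COL23A1 (0.00022), and 2 in SOX2-positive cells. In SOX2-negative cells COL5A1 differed between 100 and 1000 ng/ml by 0.98 ± 0.18 and COL5A2 by 2.17 ± 0.47 on the log2 scale, with libraries that do not overlap, and COL23A1 went from 234 and 447 to 154 and 131 CPM. At 300 ng/ml, with 1 library per gate and no replicate check, these 3 and FN1 and COL4A4 lay within the range of the values at the other doses. Without WNT3A 100 SOX2-negative replicate 1 edgeR called 19 members in SOX2-negative cells and 10 in the difference of the dose effects, in a fit that called 33.7% and 22.3% of all genes.

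**Figure D4:**
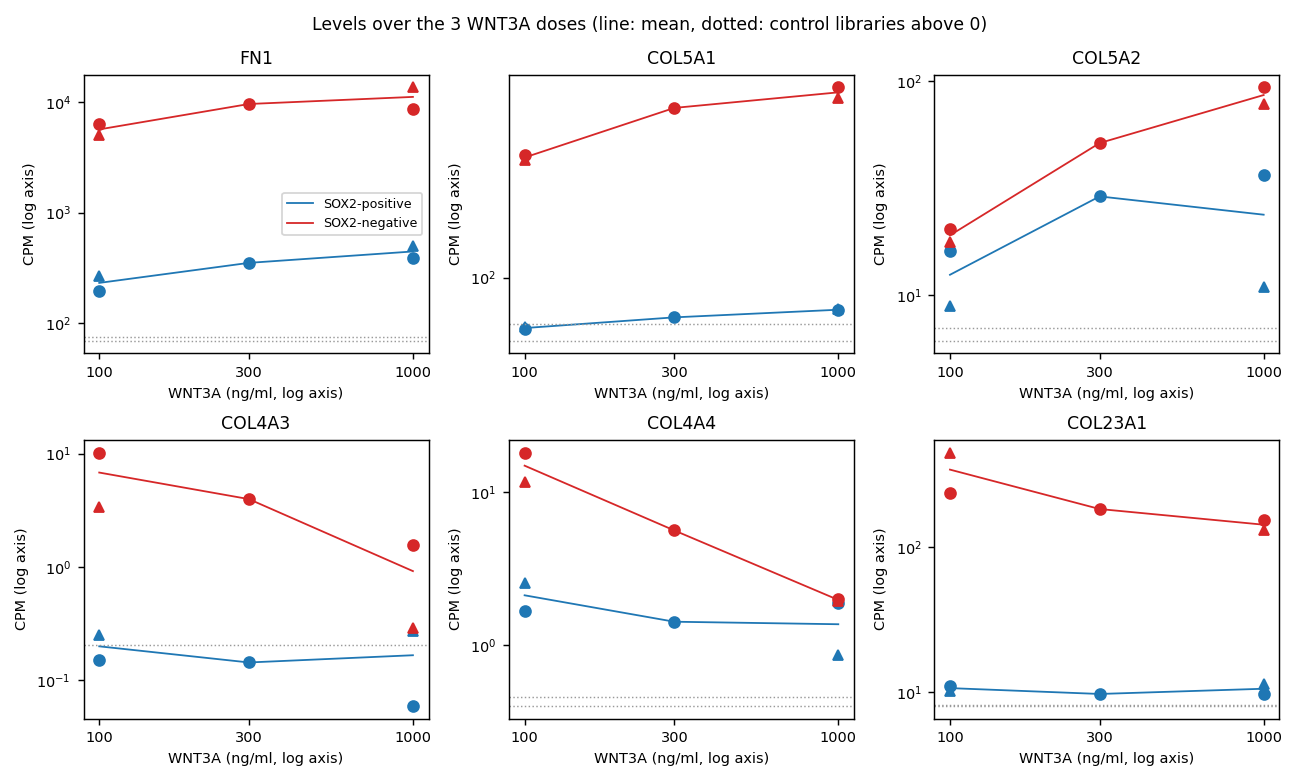
CPM (log axis) of 6 matrix genes over WNT3A dose (log axis) in SOX2-positive (blue) and SOX2-negative (red) cells, 1 point a library (circle replicate 1, triangle replicate 2), lines through the means and dotted lines for control libraries above 0. In red, FN1, COL5A1 and COL5A2 lie higher at 1000 than at 100 ng/ml, and COL4A3, COL4A4 and COL23A1 lie lower; none of these dose differences passed in edgeR with the filter on low counts and all libraries.

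Levels were compared between chains per kilobase of the longest coding transcript in GENCODE 29, as CPM per kb. On this scale FN1 ranked 20 of the matrix genes in control, 6 in SOX2-positive cells and 1 in SOX2-negative cells, at 8.10 ± 0.39 (SD, n = 2), 38.3 ± 13.1 (n = 5) and 967 ± 373 (n = 5) CPM per kb. COL4A1 over COL4A2 was 0.801 and 0.845 in control, 0.656 to 0.735 in SOX2-positive and 0.806 to 1.44 in SOX2-negative libraries. COL4A6 over COL4A5 was 0.951 and 1.13 in control, 0.478 to 0.724 in SOX2-positive and 1.45 to 2.30 in SOX2-negative libraries, which do not overlap. LAMA5 over LAMA1 was 1.52 to 1.82 in control, 2.28 to 2.58 in SOX2-positive and 0.485 to 0.937 in SOX2-negative libraries, so LAMA1 was the more abundant alpha chain in the SOX2-negative gate and LAMA5 elsewhere.

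LAMC1 over LAMB1 was 0.662 to 0.689 in control, 1.47 to 1.82 in SOX2-positive and 0.737 to 1.18 in SOX2-negative libraries. COL6A1 exceeded COL6A3 by 151 to 1205 times per kb, in every group, while COL6A1 over COL6A2 was 0.907 to 1.76. COL9A2 over COL9A1 was 0.945 to 1.76 in control and SOX2-positive libraries and 35.8 to 100 in SOX2-negative ones. These ratios depend on the transcript chosen for length and are given as a description.

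**Figure D5:**
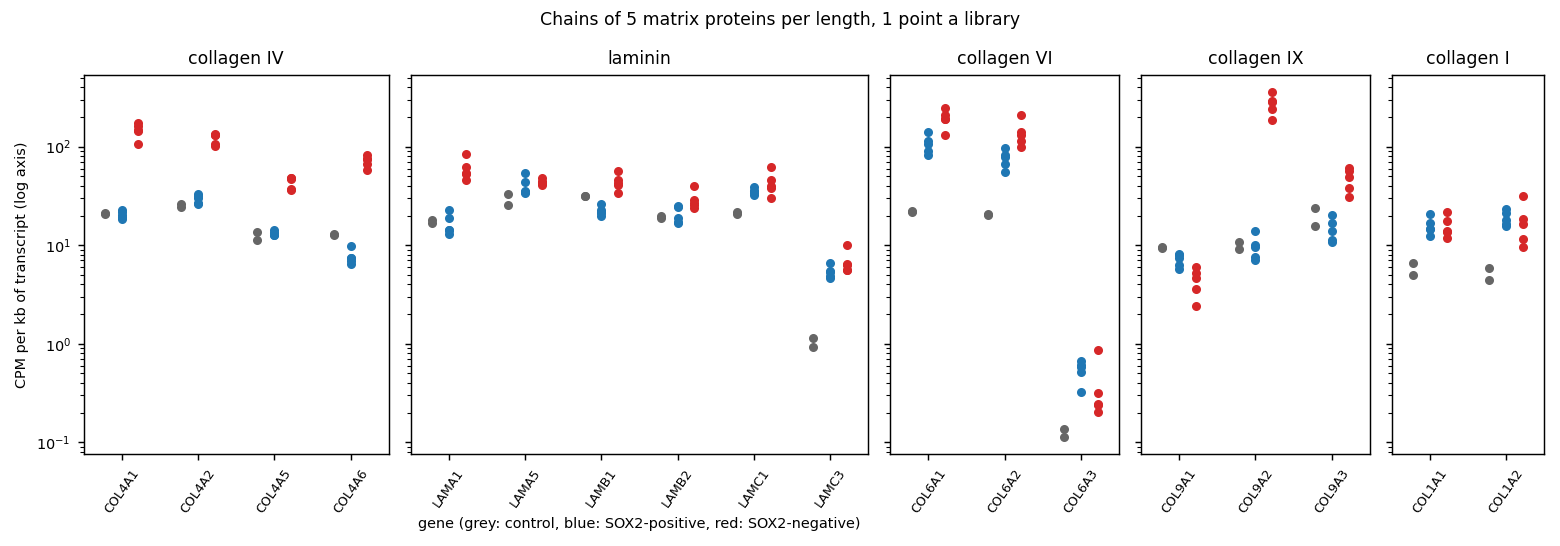
CPM per kb of the longest coding transcript (log axis) for the chains of 5 matrix proteins, 1 point a library (grey control, blue SOX2-positive, red SOX2-negative). COL6A3 lies far below COL6A1 and COL6A2 in every group, and COL9A2 lies above COL9A1 and COL9A3 in red.

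Of 34 enzymes that modify, process and cross-link collagen, 13 were higher and 1 lower in the SOX2-negative gate, beside 12.9% and 11.1% of all genes tested. The median log2 difference was 0.60. LOX, which cross-links collagen and elastin, stood at 0.457 and 0.549 CPM in control, 1.69 to 3.30 in SOX2-positive and 15.4 to 22.2 in SOX2-negative libraries (3.15 ± 0.26). P3H2, the prolyl hydroxylase known for acting on collagen IV, was at 39.6 and 45.5 CPM in control, 60.9 to 73.7 in SOX2-positive and 182 to 407 in SOX2-negative libraries (2.13 ± 0.19). PLOD1, a lysyl hydroxylase, and ADAMTS3, a procollagen peptidase, rose by 1.44 and 1.37, and ADAMTS14, another procollagen peptidase, was lower by 1.55 ± 0.42 (log2, edgeR adjusted p = 0.022).

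Of 19 matrix-degrading enzymes and inhibitors, 9 were higher and 5 lower, where 12.9% of all genes tested were higher and 11.1% lower. ADAMTS5 and ADAMTS9, proteoglycan-cutting proteases, were higher by 2.92 ± 0.83 and 2.78 ± 0.24 on the log2 scale, and the collagenase activator MMP14 and the gelatinase MMP2 by 2.21 ± 0.19 and 2.08 ± 0.21. MMP24, TIMP4, MMP9 and PLAT were lower, MMP24 going from 7.49 to 33.0 CPM in SOX2-positive to 0.964 to 1.92 in SOX2-negative libraries. Of 38 other tested matrix glycoproteins and proteoglycans, 18 were higher and 6 lower. FBLN2, a fibulin of basement membranes, stood at 54.6 to 73.5 CPM in SOX2-positive and 901 to 1711 in SOX2-negative libraries (4.25 ± 0.21). TNR, EGFLAM and NTN4 were higher by 5.84, 5.08 and 4.51, and THBS2, SMOC1, SPOCK1 and MATN2 lower by 1.80 to 3.45.

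Cell type markers moved with the same sort. Between the gates 12.9% of all genes tested were higher in SOX2-negative cells and 11.1% lower. The 9 definitive endoderm markers were each called higher in SOX2-negative cells and summed to 959 to 1611 CPM there, 17.9 to 38.0 in SOX2-positive and 60.0 to 60.2 in control libraries, with SOX17 at 340 to 827 CPM. Of 11 lateral and cardiac mesoderm markers, 10 were higher, with sums of 232 to 597, 7.71 to 28.3 and 66.8 to 78.8 CPM in the same order. Of 7 tested extraembryonic endoderm markers 4 were higher and none lower. That list summed to 115 to 241 CPM in SOX2-negative, 8.66 to 15.5 in SOX2-positive and 7.50 to 9.40 in control libraries. TTR was at 0 in every library, AFP at 0 to 0.989 and SOX7 at 0.476 to 3.01 CPM. Other members of the list thus made up most of its sum in SOX2-negative libraries. The gate therefore holds RNA of endoderm and mesoderm markers together, and which of these cells carry the matrix RNA was not tested.

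Marker lists of connective tissue and vessel cells gave mixed counts, to be read beside the 12.9% higher and 11.1% lower over all genes tested. Of 9 chondrocyte and notochord markers 2, FOXJ1 and HAPLN1, were higher and 1, SOX9, lower in SOX2-negative cells, with sums of 72.3 to 165 CPM in SOX2-negative, 34.3 to 58.8 in SOX2-positive and 63.7 to 85.4 in control libraries, and ACAN stood at 1.49 to 3.20, NOTO at 0.180 to 1.43 and MATN1 at 0.0427 to 0.696 CPM over all libraries. Of 10 tested fibroblast and mural markers 5 were higher and 1 lower, with sums of 209 to 523 CPM in SOX2-negative, 199 to 345 in SOX2-positive and 177 to 199 in control libraries, and TWIST2 was at 0 throughout. Of 8 tested endothelial markers 5 were higher and 1 lower, with sums of 364 to 754, 136 to 222 and 171 to 178 CPM, and VWF reached 700 CPM in WNT3A 100 SOX2-negative replicate 2, while EMCN was at 0 to 0.0508 and CDH5 at 0 to 3.69 CPM. Of 8 pluripotency markers 6 were lower and none higher, with sums of 2373 to 3504 in SOX2-negative against 5704 to 6542 CPM in SOX2-positive libraries. Of 7 tested neural progenitor markers 1 was lower and none higher. The lists describe RNA in the sorted pools, and their part in the matrix differences was not tested.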

How the data were processed

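Libraries were made from poly-A RNA and sequenced as read pairs, per the labels' protocols. The authors deposited estimated counts per gene, and the submitters' processing notes name Salmon and GRCh38; a Salmon version, annotation and strand setting are not given in the sources used here. The counts were rounded and summed by symbol (37951 identifiers, 35940 symbols). Tests used edgeR 4.0.16 (limma 3.58.1, R 4.3.3): TMM scaling, filterByExpr (minimum count 10, minimum total 15), a single model in which each of the 7 groups has its mean (5 residual degrees of freedom) and the two-sided quasi-likelihood test, with Benjamini-Hochberg adjustment over 17047 genes and a threshold of 0.05. Alternatives were DESeq2 1.42.0, its size factors, no filter, identifiers apart, fewer groups, a replicate block and leaving out 1 library at a time. Each library of the groups with 2 libraries was left out, and those at 300 ng/ml never were. The 300 ng/ml libraries entered the fit, and comparisons used 100 and 1000 ng/ml.

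The members and lists were chosen with earlier results of these data known. Genes named are FN1, per class up to 4 members of highest mean CPM and up to 3 called members per direction and comparison, and up to 4 called genes per other list and direction; cell type markers named with values were chosen after those values were seen. The labels' protocols describe a second biological repeat of all conditions but 300 ng/ml, which is the dose with number 1 alone, so the replicate number marks the repeat and pairs the samples. The main model has no term for this pairing, so its p-values do not use it. The replicate block adds a term for the repeat and none for the colonies that the 2 gates of a treatment share. The correlation between groups of the same-numbered libraries' deviations ranged from -0.0601 to 0.223 (10 pairs of groups, of which 5 exceeded 0.1). Replicates differed by more than sampling noise in every group, so none was counted as 1 library. On simulated data with the real means (16521 genes), the comparison of gates found 59.1% of the 2-fold changes, 77.9% of the 4-fold changes and 84.1% of the 8-fold changes that had been put in, and called 16 genes without one. The changes were put into 66, 68 and 63 genes, a far smaller share than the 24% of genes called between the gates in the data. These rates therefore hold for the simulated setting and need not hold for the data. Floors cover counting error only. The result for 1 member is not reported here.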

Additional observations from a re-analysis of the deposited data

Results flagged for a closer look

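In 5 of the tested matrix genes every SOX2-negative library at 100 and 1000 ng/ml lay on one side of both controls and every SOX2-positive library on the other, and the difference between the gates was itself tested. COL4A6, COL13A1 and LAMB1 were above control in SOX2-negative and below it in SOX2-positive cells, with gate differences of 3.21, 2.83 and 0.98 on the log2 scale. COL5A3 and COL22A1 showed the opposite arrangement, with gate differences of -4.46 and -2.33. All 5 passed between the gates (edgeR adjusted p 9.5e-07 to 0.0027). They were picked from the same libraries for lying apart in this way, so these p-values are no separate evidence of a difference. How many of all genes show this arrangement was not counted. COL5A3 rests on few counts in SOX2-negative cells, and against control the SOX2-positive side passed for COL13A1 at 100 ng/ml and for none of the other 4. With the replicate block COL13A1 at 100 ng/ml did not pass (0.0571) and COL4A6 did (0.0462), and DESeq2 called COL4A6 at both doses (0.0068 and 0.0428). No group had the 4 libraries needed to test for an outlying sample.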

How the results depend on the processing

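The counts moved with the share of all genes called, given in brackets. Between the gates 27 to 35 members were called over 17 alternatives (15.6% or 17.9% of all genes at 27, 40.1% at 35), 29 with the replicate block that pairs the repeats (24.1%). In SOX2-negative cells against control the range was 16 to 36 at 100 ng/ml (8.29% at 16, 20% at 36). When each library was left out it was 16 to 32 (19.3% or 19.4% at 32). At 1000 ng/ml the range was 22 to 39 (8.22% at 22, 16.8% at 39). In SOX2-positive cells it was wider. At 100 ng/ml 18 were called with no filter on low counts (7.04%), 21 with only the groups compared (18.5%) and 0 to 15 when each library was left out (0.5% to 8.86%); at 1000 ng/ml 14 with no filter (7.88%), 15 with DESeq2 (9.47%), 20 with only the groups compared (14.3%) and 3 to 15 when each library was left out (0.753% to 10.6%). Between doses SOX2-negative cells gave 12 calls with no filter (6.79%) and 6 with DESeq2 (2.42%). They gave 0 to 19 when each library was left out (0% to 33.7%). SOX2-positive cells gave 2 with no filter (0.469%). The difference of the dose effect between the gates gave 0 to 10 when each library was left out (0% to 22.3%). The block lost NID1 between the gates (edgeR adjusted p = 0.0513) and COL13A1 in SOX2-positive cells at 100 ng/ml (0.0571), gained COL11A1 between the gates (0.0495), COL4A6 in SOX2-positive cells at 100 ng/ml (0.0462), COL20A1 in SOX2-negative cells at 1000 ng/ml (0.0473) and COL5A2 in SOX2-positive cells at 1000 ng/ml (0.0434), and changed no other call. No called member reversed its direction under an alternative that was run. DESeq2's size factors moved the median of all genes by at most 0.01 on the log2 scale. The cause of these changes was not tested. With 2 libraries a group, members near the floor of 3 counts, such as COL15A1 and COL10A1, allow no statement.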
